A study of Mus musculus with 2 samples.

Results

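The genes described here are 10 members of the interleukin 1 (IL-1) and IL-18 pathways and of the inflammasome, chosen by name from the 22337 gene symbols of a single-cell RNA sequencing matrix of transplanted mouse hearts. They are the ligands *Il1b*, *Il1a* and *Il18*, the antagonist *Il1rn*, the receptor chains *Il1r1*, *Il18r1* and *Il18rap*, and the inflammasome genes *Nlrp3*, *Casp1* and *Pycard*. All 10 were measured, and the choice used no threshold on their values.

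IL-1β and IL-18 are made as inactive precursors. An inflammasome, in which the sensor NLRP3 and the adaptor ASC (encoded by *Pycard*) gather the protease caspase-1, cuts both into their active forms, while IL-1α is active without that cut. IL-1 signals through the receptor encoded by *Il1r1* in many tissue cells, and the protein of *Il1rn* occupies that receptor without signalling. IL-18 signals through the paired chains of *Il18r1* and *Il18rap*, and together with IL-12 it is known for driving interferon-γ production by NK and T cells. IL-33, the cytokine that differs between the grafts, belongs to the same family. RNA levels do not show whether a precursor was cut or secreted.

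Male donor hearts (6 in all) carrying the I-A bm12 change in an MHC class II gene (Bm12, a strain on the C57BL/6 background) were placed into male B6 recipients and collected at postoperative day (POD) 14. Hearts 1, 2 and 3 came from Bm12 donors with intact *Il33* (IL-33+, n = 3), and hearts 4, 5 and 6 from Bm12 Il33-/- donors (IL-33-, n = 3), a line made by crossing Bm12 onto Il33-/- mice. Recipients in both groups kept their own *Il33*, the loss was in every donor cell rather than in 1 cell type, and no unaltered heart was included, so all 6 hearts share the mismatch. Cells were released with collagenase, enriched on a Lympholyte-M density layer without sorting, marked per heart with a hashtag antibody and captured on the 10x Genomics platform from transcript 3' ends, each captured molecule being counted once through its unique molecular identifier (UMI). Values are given as CPM, a gene's UMIs scaled to a common total of UMIs per cell, and each is the mean over 1 heart's cells of 1 type. With 1 count per captured transcript end, CPM is not divided by transcript length.

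The matrix held 4441 cells, 230 to 1666 per heart, with 908132 to 7012931 UMIs per heart and a median of 3698 UMIs per cell. No barcode occurred in more than 1 cell. The authors assigned the cells to 14 types from the expression of these same cells, so differences between types are given as a description without a test. Several labels did not match their markers fully. Of 204 cells labelled monocyte-derived dendritic cells (Mo-DCs), 45 (22.1%) held UMIs of at least 4 of 8 neutrophil markers, and the conventional dendritic cell markers summed to 45.8 CPM there against 5193.8 CPM for macrophage markers. The 2 lists are not on a common scale. The first summed to 871.2 CPM in cells labelled conventional dendritic cells and the second to 7199.4 CPM in macrophages. Of 83 cells labelled unconventional T cells, 54 (65.1%) were positive for 2 or more T cell markers together with 2 or more macrophage markers. Of 375 fibroblasts, 63 (16.8%) held UMIs of at least 3 of 6 endothelial markers. *Il33* RNA itself did not separate the graft labels: in fibroblasts it stood at 24.3, 0 and 50.7 CPM in the IL-33+ hearts and at 32.6, 73.8 and 16.1 CPM in the IL-33- hearts. Most of these values rest on few UMIs, with 7, 0 and 121 in the IL-33+ hearts and 9, 3 and 5 in the IL-33- hearts. Heart 2 had 6 fibroblasts and heart 5 had 4. How many cells of a heart are of a type and how much RNA each holds cannot be told apart in a mean over all cells.

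*Il1b* (chr2:129364570-129371139, minus strand) and *Il1a* (chr2:129299610-129309972, minus strand) are neighbours, with 54597 bases between them. *Il1rn* lies elsewhere on the same chromosome (chr2:24336853-24351494, plus strand). The receptor genes form a cluster on chromosome 1. *Il18r1* (chr1:40465552-40500854) follows 136 bases after *Il1rl1*, the IL-33 receptor gene, and *Il18rap* (chr1:40515362-40551705) follows 14507 bases after *Il18r1*, with *Il1r1* upstream (chr1:40225080-40317257), all on the plus strand. *Il18* (chr9:50554827-50581840) and *Casp1* (chr9:5298517-5307265) are on chromosome 9, *Nlrp3* (chr11:59541568-59566956) on chromosome 11, all on the plus strand, and *Pycard* (chr7:127989708-127993867) on the minus strand of chromosome 7. These positions are of GENCODE vM21 on GRCm38.

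The start regions of 4 genes are shown because *Il1b*, *Il1rn* and *Nlrp3* followed nearly the same order over cell types, and *Il1a*, the neighbour of *Il1b*, did so less closely. Each runs 5' to 3' from 60 bases before to 30 bases into the transcript on the gene's strand (RefSeq, GRCm38.p6), and capitals mark the TATA motif TATAAA.
Il1b (chr2:129371110-129371199, minus strand): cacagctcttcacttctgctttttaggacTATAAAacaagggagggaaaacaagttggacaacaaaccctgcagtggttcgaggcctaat
Il1a (chr2:129309943-129310032, minus strand): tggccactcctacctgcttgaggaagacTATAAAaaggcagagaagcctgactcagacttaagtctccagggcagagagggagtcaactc
Il1rn (chr2:24336800-24336889, plus strand): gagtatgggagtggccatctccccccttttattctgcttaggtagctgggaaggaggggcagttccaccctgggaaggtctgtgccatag
Nlrp3 (chr11:59541509-59541598, plus strand): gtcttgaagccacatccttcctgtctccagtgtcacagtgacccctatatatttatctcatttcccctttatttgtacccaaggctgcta
The motif began 31 bases before the start of *Il1b* and 32 bases before that of *Il1a*, and these letters did not occur in the windows printed for *Il1rn* and *Nlrp3*. For *Il1rn* 3 starts are listed and for *Nlrp3* 2, and not all of them are printed. Which start was used in these cells was not measured. Among 32851 promoter windows of 300 bases, 13.6% held TATAAA on either strand, 8.32% on the gene's strand, and 1.99% on the gene's strand lying whole within the bases 40 to 16 before the start. A match is a description of these letters and not of a factor bound there.

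Separate groups of cell types led the levels of the 10 genes. *Il1b*, *Il1rn* and *Nlrp3* were highest in Mo-DCs and macrophages, *Il1r1* in fibroblasts, and *Il18r1* and *Il18rap* in NK cells. *Casp1* and *Pycard* were spread over myeloid and T cell types, and *Il18* and *Il1a* rested on few UMIs. Over the 14 types, the mean levels of *Il1b* and *Il1rn* on the log2(CPM + 10) scale had a Pearson r of 0.96, those of *Il1rn* and *Nlrp3* 0.97, those of *Il18r1* and *Il18rap* 0.83, and those of *Il1b* and *Il1a* 0.58. These correlations describe 14 types that come from the same 6 hearts, whose cells were pooled before capture, and that differ in depth.

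**Figure D1:**
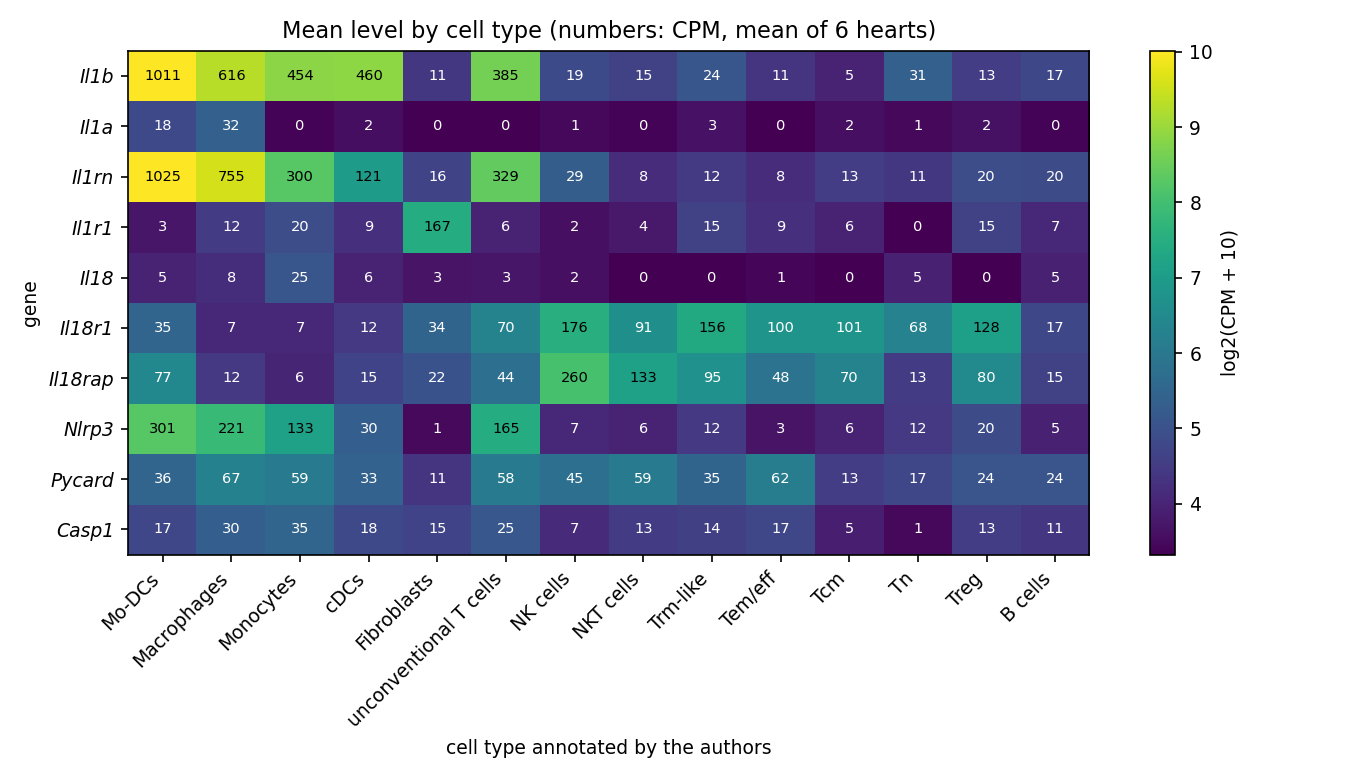
Mean level of each of the 10 genes (rows) in each of the 14 annotated types (columns), with the CPM averaged over 6 hearts printed in each cell and its colour on a log2(CPM + 10) scale. *Il1b* reached 1010.7 CPM in Mo-DCs and 615.9 CPM in macrophages, *Il1r1* 167.1 CPM in fibroblasts and *Il18rap* 260.5 CPM in NK cells.

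*Il1b* RNA, which encodes IL-1β, was carried by the myeloid types. Its mean over 6 hearts was 1010.7 CPM ± 806.0 (SD, n = 6) in Mo-DCs, 615.9 ± 412.9 in macrophages, 460.5 ± 137.1 in conventional dendritic cells (cDCs), 453.9 ± 280.8 in monocytes and 384.6 ± 283.7 in unconventional T cells, the type in which most cells held markers of both lineages. These neighbours did not separate from each other beyond the spread of hearts, since Mo-DCs exceeded macrophages in 5 of 6 hearts, macrophages cDCs in 4, cDCs monocytes in 3 and monocytes unconventional T cells in 2. The gap below them was wide, the next type being naive T cells at 31.4 CPM ± 30.3 (SD, n = 6), and in 5 of 6 hearts all of the first 5 types stood above every other type. Macrophages, which were 9.66% of cells, held 1942 of the 4395 *Il1b* UMIs (44.2%, and 28.8% to 57.0% by heart).

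Within those types *Il1b* was concentrated in few cells. The 43 macrophages with the most *Il1b*, 10% of 429, held 1172 of the 1942 UMIs, and the highest held 105. With every cell thinned to 1500 UMIs to set depth equal, 33.3% of macrophages and 36.8% of Mo-DCs had an *Il1b* UMI, against 2.04% of NK cells (median depth 6606, 2310 and 2711 UMIs before thinning). Before thinning the shares were 51.1% (95% Wilson interval 46.3% to 55.8%) of macrophages, 43.1% (36.5% to 50%) of Mo-DCs and 4.73% (3.54% to 6.29%) of NK cells. The intervals cover counting error only. Free RNA in droplets was not measured, and its part in the low lymphocyte shares was not tested.

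**Figure D2:**
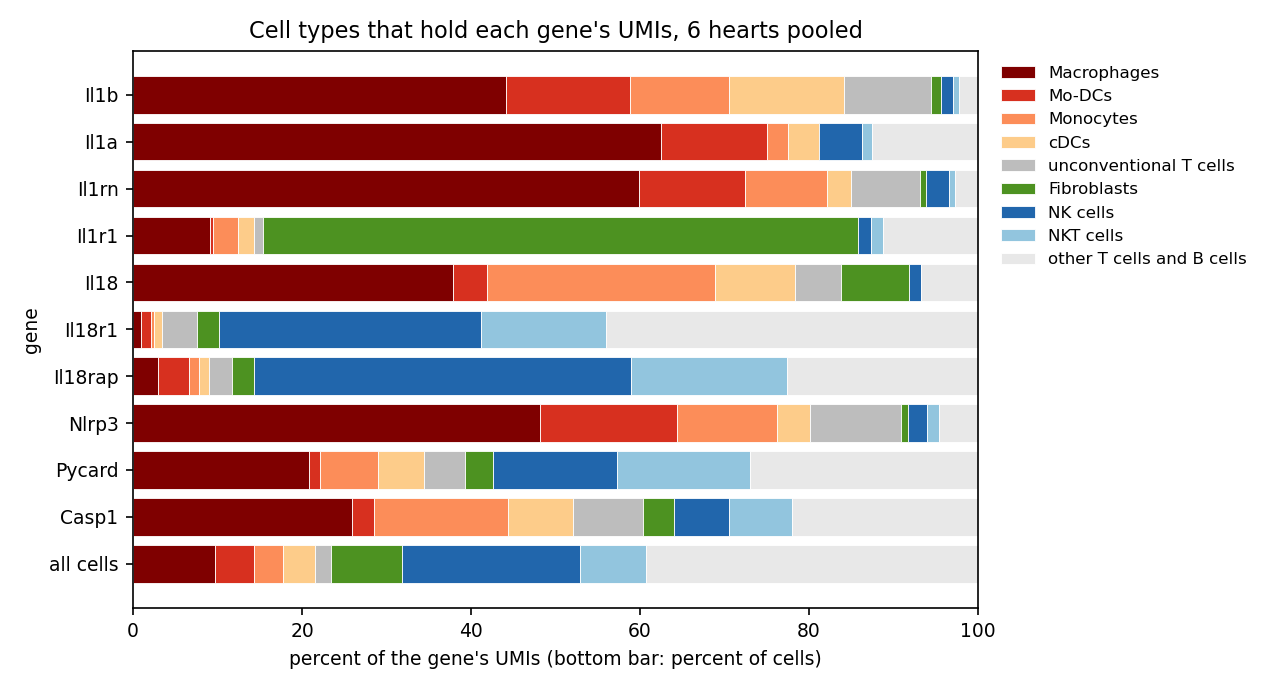
Percent of each gene's UMIs (horizontal axis, bars split by annotated type) over the 6 hearts pooled, with the percent of cells of each type in the bottom bar. Macrophages held 44.2% of *Il1b* UMIs and 59.8% of *Il1rn* UMIs from 9.66% of cells, fibroblasts 70.5% of *Il1r1* UMIs and NK cells 44.7% of *Il18rap* UMIs.

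Between graft groups, *Il1b* in Mo-DCs stood at 648.9, 1972.2 and 2108.2 CPM in the IL-33+ hearts and at 575.5, 412.5 and 346.8 CPM in the IL-33- hearts. All 3 IL-33+ hearts were above all 3 IL-33- hearts, though heart 1 lay close to heart 4. The means were 1576.4 CPM ± 806.1 (SD, n = 3) and 444.9 ± 117.7 (SD, n = 3), a log2 difference of 1.66 (SE 0.47, 95% interval 0.73 to 2.58), with an unadjusted p of 0.00043 and an adjusted p of 0.23 by limma, and an exact permutation p of 0.1, the smallest that 3 hearts against 3 allow. The limma SE, interval and p draw on the variance of all genes in the type, so they do not measure the spread of these hearts alone. The CPM values rest on 41, 19 and 535 UMIs in hearts 1, 2 and 3 and on 33, 6 and 10 UMIs in hearts 4, 5 and 6, and heart 2 had only 4 Mo-DCs and heart 5 only 7. The share of Mo-DCs with an *Il1b* UMI at equal depth overlapped between groups, at 24.3%, 25.0% and 47.7% against 32.1%, 28.6% and 5.88% (exact permutation p = 0.6).

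The neutrophil-marker cells labelled as Mo-DCs had higher pooled means of *Il1b*, *Il1rn*, *Nlrp3* and *Il1r2*, and 27 of these 45 cells came from heart 3. Pooled over hearts, *Il1b* averaged 2453.7 CPM in the 45 cells with neutrophil markers and 1134.5 CPM in the 159 without, *Il1rn* 1860.4 and 682.4 CPM, *Nlrp3* 767.1 and 333.6 CPM, and *Il1r2*, the decoy receptor of IL-1, 2398.7 and 159.2 CPM. Only hearts 3 and 4 had 5 cells of each kind, so no p below 0.5 was possible. *Il1rn* and *Il1r2* were higher in the neutrophil-marker cells of both hearts, while *Il1b* was higher in heart 3 (2980.4 against 1827.8 CPM) and lower in heart 4 (403.8 against 686.5 CPM). *Nlrp3* was likewise higher in heart 3 (967.7 against 491.8 CPM) and lower in heart 4 (143.1 against 171.3 CPM). The share of such cells was 10.8%, 25.0% and 24.3% of Mo-DCs in hearts 1, 2 and 3 and 39.3%, 14.3% and 5.88% in hearts 4, 5 and 6, and the neutrophil markers summed to between 2162.0 and 9720.8 CPM in the IL-33+ hearts and between 1917.1 and 71316.4 CPM in the IL-33- hearts. The 5 monocyte markers summed to 830.7, 430.5 and 614.0 CPM in the Mo-DCs of the IL-33+ hearts and to 1957.1, 2216.1 and 1241.1 CPM in those of the IL-33- hearts, without overlap. Of them *Plac8* and *Chil3* did not overlap, none of the 5 was at 0 in all hearts, and their part in the Mo-DC differences was not tested.

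Without those cells *Il1b* in Mo-DCs was 168.1, 2629.6 and 1827.8 CPM in the IL-33+ hearts and 686.5, 219.4 and 26.6 CPM in the IL-33- hearts. Heart 1 then fell below hearts 4 and 5, so the groups overlapped (exact permutation p = 0.3). The fitted log2 difference was nevertheless larger, at 2.40, with a limma adjusted p of 0.012. Because limma pools variance over genes, that p does not measure the wide spread of these hearts. With all Mo-DCs kept, the log2 difference was 2.20 without heart 1 (adjusted p = 0.041 by limma). With the hearts of under 10 cells left out it was 1.37 (adjusted p = 0.9995). The limma call in Mo-DCs therefore depended on which cells and hearts entered the fit, while the sign was positive under all 16 alternatives.

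**Figure D3:**
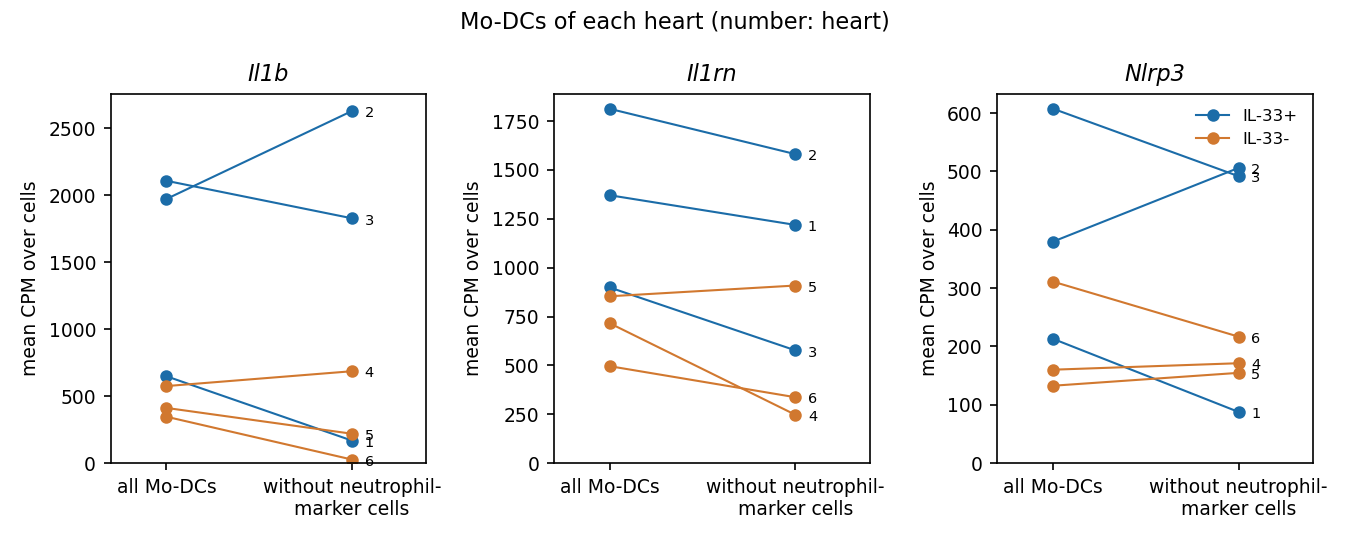
Level of *Il1b*, *Il1rn* and *Nlrp3* in the Mo-DCs of each heart (vertical axis, mean CPM over cells; each line is a heart, with its number), with all labelled cells on the left and without neutrophil-marker cells on the right. For *Il1b*, heart 1 moved from 648.9 to 168.1 CPM and heart 2 from 1972.2 to 2629.6 CPM, so that the groups overlapped on the right only.

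In macrophages *Il1b* stood at 487.2, 523.0 and 1443.5 CPM in the IL-33+ hearts and at 365.3, 346.9 and 529.7 CPM in the IL-33- hearts. Heart 3 was far above the others and the remaining values overlapped, with a log2 difference of 0.80 (SE 0.31), an unadjusted p of 0.017 and an adjusted p of 0.99 by limma (exact permutation p = 0.3). Leaving out 1 heart at a time moved the difference between 0.31 and 1.08. The differences in Mo-DCs and in macrophages were not distinguishable from each other (difference 0.85 on the log2 scale, exact permutation p = 0.3).

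Monocytes and cDCs gave no like pattern. In monocytes *Il1b* was 471.3, 27.0 and 842.9 CPM in the IL-33+ hearts and 502.6, 609.3 and 270.0 CPM in the IL-33- hearts, and the low value of heart 2 came from 1 UMI in 5 cells. The log2 difference was -0.85 with an adjusted p of 0.97 by limma. Without heart 3 it became -1.74 with a limma adjusted p of 0.0016, although heart 1 still lay within the range of the IL-33- hearts. That p draws on variance pooled over genes and does not measure the spread of these hearts alone. Without heart 2 the difference changed sign, to 0.52. In cDCs the values were 288.2, 372.8 and 682.2 CPM against 537.8, 421.5 and 460.5 CPM, which overlapped. In NKT cells the 3 IL-33+ hearts, at 13.05, 30.04 and 23.43 CPM, were above the IL-33- hearts, at 7.80, 4.65 and 9.04 CPM (unadjusted p = 0.036, adjusted p = 0.92 by limma). At equal depth 2.02% of NKT cells had an *Il1b* UMI, close to the 2.04% of NK cells.

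*Il1a*, which encodes IL-1α, had 80 UMIs in the whole matrix, 50 of them in macrophages. Its macrophage level was 2.30, 84.8 and 23.9 CPM in the IL-33+ hearts and 12.2, 57.1 and 9.22 CPM in the IL-33- hearts. The hearts overlapped fully, with a log2 difference of 0.16. In fibroblasts no cell of 375 had an *Il1a* UMI, which allows a share of cells with a UMI of up to 0.80% and sets no limit on cells that express it.

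*Il1rn*, the antagonist, had the same main sources as *Il1b* and its 2 highest types separated from all others. Its mean was 1024.7 CPM ± 481.8 (SD, n = 6) in Mo-DCs and 755.2 ± 170.7 in macrophages, and both stood above each of the other 12 types in 6 of 6 hearts. Unconventional T cells at 329.2 CPM, monocytes at 299.7 CPM and cDCs at 120.9 CPM followed. Macrophages held 1896 of its 3169 UMIs (59.8%). The transcript was spread over more macrophages than *Il1b*, since the 43 macrophages with the most held 810 of the 1896 UMIs.

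In Mo-DCs *Il1rn* was 1370.7, 1812.8 and 899.0 CPM in the IL-33+ hearts and 716.0, 853.7 and 496.2 CPM in the IL-33- hearts. The groups did not overlap, with heart 3 just above heart 5, and the log2 difference was 0.95 (SE 0.46, unadjusted p = 0.038, adjusted p = 0.9998 by limma). Without the neutrophil-marker cells heart 3, at 577.1 CPM, lay below heart 5, at 908.7 CPM, and the groups overlapped. In monocytes the order was the other way, with 162.9, 188.1 and 233.8 CPM in the IL-33+ hearts and 649.8, 321.8 and 241.8 CPM in the IL-33- hearts, again without overlap and again with near neighbours, hearts 3 and 6. The log2 difference was -0.91 (SE 0.33, unadjusted p = 0.0084, adjusted p = 0.97). In cDCs *Il1rn* was 18.7, 138.9 and 36.8 CPM against 84.3, 246.4 and 200.2 CPM, with a log2 difference of -1.56 (unadjusted p = 0.0096, adjusted p = 0.60), and heart 2 lay within the range of the IL-33- hearts. In macrophages, the type with most of the transcript, *Il1rn* was 522.3, 982.8 and 808.0 CPM against 755.8, 864.9 and 597.6 CPM, a log2 difference of 0.03 with a 95% interval of -0.45 to 0.51.

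The level of *Il1b* against its antagonist also varied more among hearts than between groups. In macrophages the log2 ratio of *Il1b* to *Il1rn* was -0.10, -0.90 and 0.83 in the IL-33+ hearts and -1.03, -1.29 and -0.17 in the IL-33- hearts. The groups overlapped (exact permutation p = 0.2), and heart 3 was the only heart with more *Il1b* than *Il1rn* there.

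**Figure D4:**
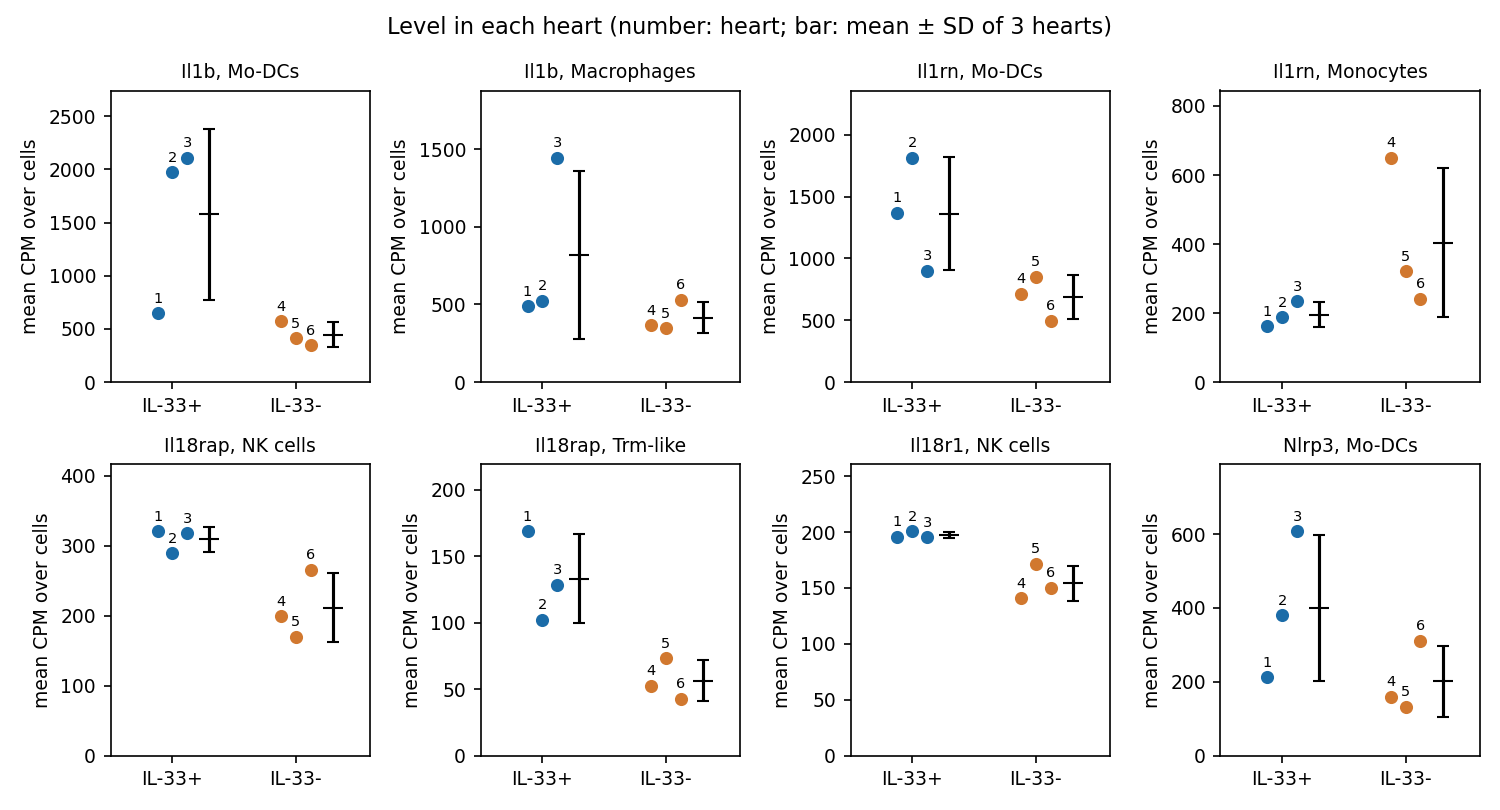
Level of selected genes in the cell type named above each panel (vertical axis, mean CPM over that heart's cells), with a point for each heart labelled by its number and a bar for the mean ± SD of the 3 hearts of a group. *Il1b* in Mo-DCs and *Il18rap* in NK cells show groups that do not overlap, and the spread within the IL-33+ group is wide for *Il1b*.

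*Il1r1*, the signalling receptor of IL-1, was a fibroblast transcript in these cells. Fibroblasts averaged 167.1 CPM ± 93.6 (SD, n = 6) and exceeded every other type in 6 of 6 hearts, with monocytes next at 19.84 CPM ± 20.45. They held 334 of its 474 UMIs (70.5%) from 8.44% of cells. By heart the fibroblast level was 87.5, 127.2 and 149.6 CPM in the IL-33+ hearts and 96.8, 338.1 and 203.5 CPM in the IL-33- hearts. The groups overlapped, and the log2 difference of -0.63 (SE 0.43) had an adjusted p of 0.998 by limma. Heart 2 had 6 fibroblasts and heart 5 had 4. The difference was -0.23 without heart 5, -1.08 without heart 4, -0.28 without hearts of under 10 cells and -0.29 with voom. Fibroblasts with endothelial markers averaged 40.1 CPM of *Il1r1* and those without 166.8 CPM, lower in 3 of 3 hearts with at least 5 cells of each kind (exact permutation p = 0.25, the smallest 3 hearts allow). In naive T cells 0 of 243 cells had an *Il1r1* UMI, which allows a share of cells with a UMI of up to 1.23%.

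*Il18* was sparse, with 74 UMIs in the matrix. Monocytes averaged 24.5 CPM ± 20.2 (SD, n = 6) and macrophages 8.43 ± 8.05. In monocytes it was 12.1, 0 and 59.7 CPM in the IL-33+ hearts and 23.54, 29.95 and 21.87 CPM in the IL-33- hearts, and at this depth no difference was detectable.

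The receptor chains of IL-18 were lymphocyte transcripts. *Il18rap* averaged 260.5 CPM ± 62.8 (SD, n = 6) in NK cells, which exceeded every other type in 6 of 6 hearts, then 132.6 ± 34.1 in NKT cells and 94.8 ± 48.2 in resident memory-like T cells (Trm-like). *Il18r1* was more even, with 175.8 CPM ± 25.7 in NK cells, 156.2 ± 45.9 in Trm-like cells, 128.1 ± 35.0 in regulatory T cells (Tregs) and 90.6 to 100.6 CPM in central memory, effector and NKT cells, and NK cells exceeded Trm-like cells in 4 of 6 hearts only. At equal depth 32.0% of NK cells had an *Il18rap* UMI and 20.3% an *Il18r1* UMI, against 2.56% and 0.23% of macrophages.

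*Il18rap* had higher values in the IL-33+ hearts in NK cells and in Trm-like cells, without passing the adjusted test. In NK cells it was 320.6, 289.0 and 318.3 CPM in the IL-33+ hearts and 199.0, 170.2 and 265.7 CPM in the IL-33- hearts, with all 3 IL-33+ hearts above. The log2 difference was 0.55 (SE 0.18, 95% interval 0.18 to 0.92), with an unadjusted p of 0.0050 and an adjusted p of 0.62 by limma. In Trm-like cells it was 168.9, 102.2 and 128.6 CPM against 52.8, 73.5 and 42.9 CPM, again without overlap, with a log2 difference of 1.11 (SE 0.35, unadjusted p = 0.0038, adjusted p = 0.92). In effector and effector memory T cells (Tem/eff) it was 49.2, 73.4 and 64.4 CPM against 34.5, 51.8 and 17.6 CPM, where heart 1 lay below heart 5 (log2 difference 0.76, unadjusted p = 0.027, adjusted p = 0.998). The 5 NK cell markers summed to 2763.2, 1245.7 and 2248.8 CPM in the Trm-like cells of the IL-33+ hearts and to 446.0, 651.0 and 1012.3 CPM in those of the IL-33- hearts, which also did not overlap. *Gzma*, a granzyme gene that T cells express too, made up most of that sum and was the only marker of the 5 that did not overlap, while *Ncr1* had 0 UMIs in these cells. Without the 68 of 362 Trm-like cells that held UMIs of at least 2 NK cell markers, a setting added after seeing the data, *Il18rap* was 159.0, 107.6 and 131.6 CPM against 53.0, 63.5 and 48.8 CPM, still without overlap (log2 difference 1.12). The fitted value was higher in the IL-33+ hearts in 11 of the 13 types in which *Il18rap* was tested. These tests share hearts and are not independent of each other.

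The share of cells gave the same order for *Il18rap*. At equal depth 34.3%, 30.2% and 35.8% of NK cells had a UMI in the IL-33+ hearts and 21.9%, 18.2% and 28% in the IL-33- hearts. In Trm-like cells the shares were 23.5%, 10.0% and 17.0% against 8.47%, 6.06% and 7.94%, and in Tem/eff cells 9.26%, 8.70% and 9.30% against 6.25%, 2.38% and 0%. None of these 3 types overlapped (exact permutation p = 0.1 in each, the smallest possible). Over all cells of a heart *Il18rap* was 100.6, 114.9 and 137.0 CPM against 60.3, 72.4 and 92.3 CPM, the only 1 of the 10 genes whose groups did not overlap on that measure (log2 difference 0.59, exact permutation p = 0.1). With UMIs summed over cells instead of averaged, the groups overlapped. How many of all genes had groups that did not overlap over all cells was not counted. The 1 of 10 is therefore a description only.

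*Il18r1*, the partner chain, was 195.9, 200.7 and 195.6 CPM in the NK cells of the IL-33+ hearts and 141.1, 171.6 and 150.1 CPM in those of the IL-33- hearts. The groups did not overlap, but the log2 difference of 0.34 (SE 0.19) had an unadjusted p of 0.081 and an adjusted p of 0.85 by limma. In Trm-like cells, where *Il18rap* separated the groups, the *Il18r1* difference was -0.15 (SE 0.31).

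In Tregs the UMIs of the paired chains often fell in the same cells. At equal depth 13 of 42 Tregs with an *Il18r1* UMI also had an *Il18rap* UMI (30.95%), against 9 of 221 without one (4.07%), and the share was higher in 3 of 3 hearts with enough cells. In NK cells the shares were 36.5% and 30.9%, higher in 3 of 6 hearts. In Trm-like cells they were 9.26% and 14.9%. None of the 13 Tregs held UMIs of 3 of the 7 group 2 innate lymphoid cell markers, and 1 of them had a *Foxp3* UMI, against 50 of the other 250 Tregs (20%).

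Of the inflammasome genes, *Nlrp3*, the sensor, followed *Il1rn*. It averaged 300.8 CPM ± 176.7 (SD, n = 6) in Mo-DCs, 221.1 ± 59.8 in macrophages, 165.4 ± 27.2 in unconventional T cells and 132.8 ± 41.9 in monocytes. All 4 stood above every other type in 6 of 6 hearts, with cDCs next at 29.9 CPM ± 17.7. In Mo-DCs it was 213.2, 379.6 and 607.6 CPM in the IL-33+ hearts and 160.2, 132.7 and 311.2 CPM in the IL-33- hearts, which overlapped (log2 difference 0.93, SE 0.60, adjusted p = 0.9998 by limma). In macrophages the difference was 0.28 (95% interval -0.28 to 0.84).

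The overlap of *Nlrp3* and *Il1b* UMIs in single cells differed by type. At equal depth 43 of 143 macrophages with *Il1b* had *Nlrp3* (30.1%), against 50 of 286 without (17.5%), and the share was higher in 4 of 5 hearts. In Mo-DCs the shares were 45.3% and 25.6%, higher in 3 of 3 hearts. In monocytes they were 19.5% and 15.9%, higher in 0 of 2 hearts, and in cDCs 5.0% and 5.34%, higher in 2 of 4. For *Il1rn* the macrophage shares were closer, at 47.6% and 43.4%, and higher in 5 of 5 hearts.

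*Casp1*, the protease, averaged 35.2 CPM ± 28.5 (SD, n = 6) in monocytes and 30.4 ± 18.2 in macrophages, with neighbouring types overlapping. In macrophages it was 19.5, 0 and 30.7 CPM in the IL-33+ hearts and 44.3, 38.4 and 49.3 CPM in the IL-33- hearts. The groups did not overlap, and the log2 difference was -1.23 (SE 0.51, unadjusted p = 0.024, adjusted p = 0.99 by limma). The 0 of heart 2 came from 10 macrophages, and without that heart the difference was -0.64. With 1 CPM added before log2 it was -2.37 and with 50 CPM -0.52. In monocytes the difference was 0.98 (SE 0.79), and the difference between the 2 types had an exact permutation p of 0.2.

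*Pycard*, the adaptor, was spread over myeloid and lymphoid types. It averaged 67.5 CPM ± 25.6 (SD, n = 6) in macrophages, 61.8 ± 9.75 in Tem/eff cells, 59.5 ± 40.2 in monocytes and 58.8 ± 23.5 in NKT cells, and macrophages exceeded Tem/eff cells in 2 of 6 hearts. In macrophages the difference between graft groups was 0.40 on the log2 scale and in Tem/eff cells -0.09. In unconventional T cells the IL-33+ hearts, at 53.4, 46.6 and 32.1 CPM, were below the IL-33- hearts, at 62.6, 71.9 and 80.9 CPM, and *Nlrp3* had the same order there, at 141.8, 139.8 and 152.6 against 188.1, 207.7 and 162.2 CPM. The limma p was above 0.05 for both. Heart 2 had only 2 of these cells and heart 6 only 4. In the cells with markers of both lineages alone, the log2 difference was 0.85 for *Pycard* and 0.34 for *Nlrp3*, and the groups overlapped for both. Heart 6 had 0 UMIs of either gene in those cells.

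Counted over all types, the 10 genes gave 95 tests between graft groups, and none passed an adjusted p of 0.05 by limma (lowest 0.23). In the same fits 10 of 113177 tests of all genes passed (0.00884%). At an unadjusted p of 0.05 or less there were 11 of the 95 (11.6%), 7 higher and 4 lower in the IL-33+ hearts, against 4.71% of all tests. The groups did not overlap in 11 of the 95 (11.6%), against 9.82% of all tests. The fitted value was above 0 in 55 of 95, with a median of 0.08 on the log2 scale. By gene, *Il18rap* was higher in 11 of 13 types tested, *Pycard* in 10 of 14, *Il18r1* in 8 of 13, *Il1rn* in 6 of 13, *Il1b* in 5 of 13, *Nlrp3* in 5 of 9, *Casp1* in 5 of 10, *Il1r1* in 3 of 6, *Il1a* in 2 of 2 and *Il18* in 0 of 2.

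In Mo-DCs the fitted values of the members lay on 1 side. Of the 10 members, 7 passed the filter on low counts there, and all 7 had a fitted value above 0, with a median of 0.93, while 49.5% of all genes tested in Mo-DCs did so, with a median of -0.01. *Il18r1* passed that filter only through the IL-33+ hearts, with 2, 1 and 12 UMIs against 1, 0 and 1 in the IL-33- hearts. *Il18rap* did so too, with fewer than the required 10 UMIs in the IL-33- hearts. The directions of both were thus tied to their being tested, and the count of 7 is a description only. The groups did not overlap for 2 of the 7, *Il1b* and *Il1rn*, against 7.51% of all genes in that type. In NK cells they did not overlap for 2 of 7, *Il18r1* and *Il18rap*, against 11.3% of all genes. In B cells 5 of 5 were above 0, against 65.5% of all genes there, in macrophages 7 of 10, against 45.3%, and in unconventional T cells 0 of 7, against 44.8%. In B cells *Il1b* had 5, 1 and 7 UMIs against 5, 0 and 0, and *Il1rn* 4, 1 and 9 against 3, 0 and 1. Both passed the filter only through the IL-33+ hearts there, so the B cell count is also a description only. Mo-DCs also held the neutrophil-marker cells described above, and their part in these counts was not tested beyond the values given.

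**Figure D5:**
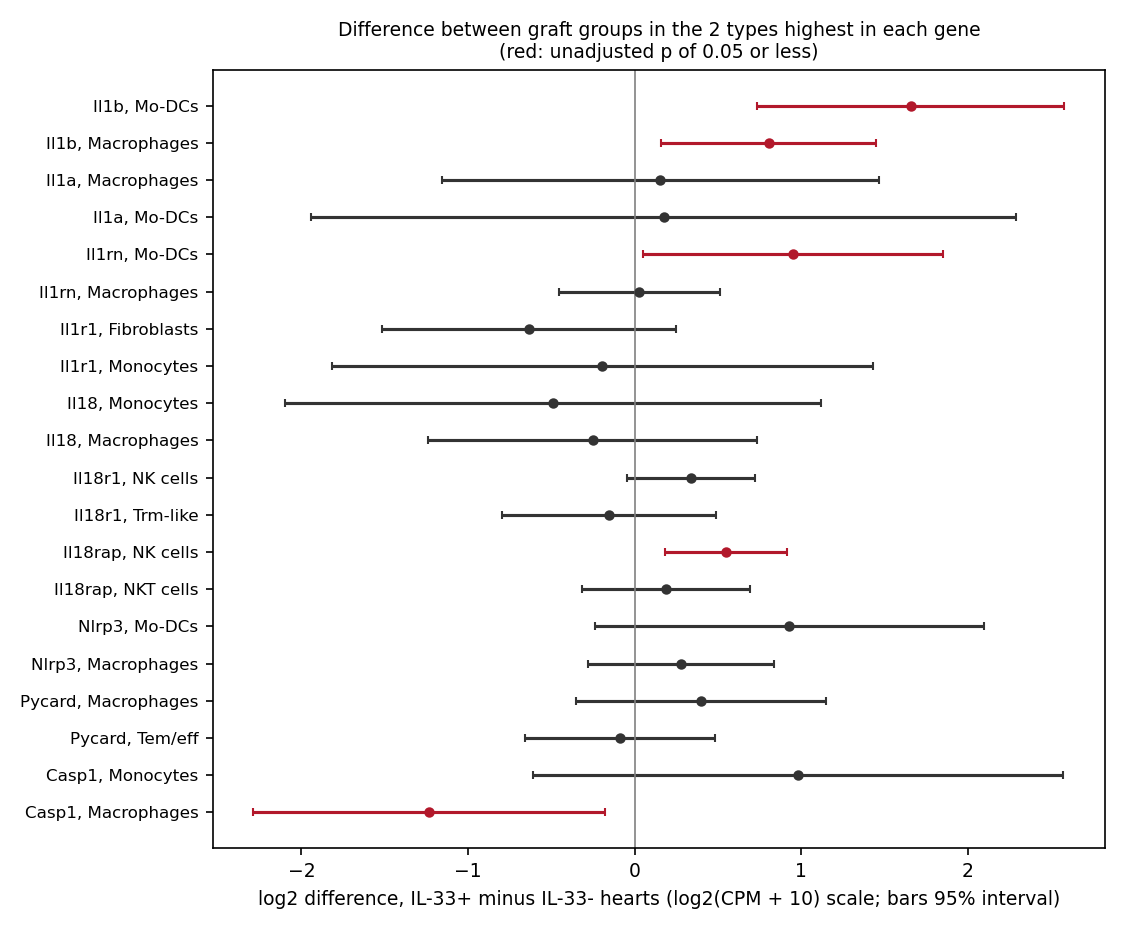
Log2 difference between graft groups (horizontal axis, IL-33+ minus IL-33- hearts, with bars for the 95% interval) of each gene in the 2 types in which its level was highest (rows). Red marks an unadjusted p of 0.05 or less, which *Il1b* and *Il1rn* in Mo-DCs, *Il1b* and *Casp1* in macrophages and *Il18rap* in NK cells reached, and no row passed after adjustment.

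The rest of the pathways was read from 5 lists of genes. None of their tests passed an adjusted p of 0.05 by limma. Over all genes 4.71% of tests reached an unadjusted p of 0.05 or less, and in 9.82% the groups did not overlap. Of the IL-1 family receptors and decoys, 5 of 10 genes were in the matrix, and 1 of 43 tests reached an unadjusted p of 0.05 or less, with groups that did not overlap in 2. *Il1r2*, the decoy receptor, was the highest, at 653.7 CPM in Mo-DCs, 285.9 in monocytes and 200.7 in macrophages, and did not differ detectably between graft groups in Mo-DCs (log2 difference 0.69, SE 0.51). *Il18bp*, which encodes the soluble inhibitor of IL-18, averaged 38.0 CPM in macrophages, with a difference of 0.52 (SE 0.40). Of the signalling genes, 20 of 179 tests (11.2%) reached an unadjusted p of 0.05 or less, 12 higher and 8 lower, and the groups did not overlap in 27 (15.1%). Among them were *Nfkbia*, the inhibitor of NF-κB, in Tregs (log2 difference 0.67, SE 0.20, adjusted p = 0.62) and its relative *Nfkbiz* in Tregs (0.92, adjusted p = 0.71) and Trm-like cells (1.02, adjusted p = 0.92).

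Of the other inflammasome and pyroptosis genes, 12 of 159 tests (7.55%) reached an unadjusted p of 0.05 or less, 8 higher and 4 lower, and the groups did not overlap in 16 (10.1%). *Casp4*, the caspase of the noncanonical inflammasome, differed by 1.11 on the log2 scale in NK cells (SE 0.36, adjusted p = 0.62). *Nek7*, a partner of NLRP3, differed by -1.12 in macrophages (SE 0.40, adjusted p = 0.99) and by 0.94 in cDCs (SE 0.39, adjusted p = 0.71). *Ninj1*, which ruptures the membrane late in pyroptosis, reached 366.5 CPM in monocytes against 344.2 CPM for macrophages, and differed by 0.11 in monocytes (SE 0.29).

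Genes that IL-1 is known to induce reached an unadjusted p of 0.05 or less in 3 of 74 tests (4.05%), all higher in IL-33+ hearts, and the groups did not overlap in 2. *Ptgs2*, which encodes cyclooxygenase-2, was, in Mo-DCs, at 572.2, 1005.0 and 614.8 CPM in the IL-33+ hearts and 59.6, 195.4 and 298.2 CPM in the IL-33- hearts. Its groups did not overlap, and the log2 difference was 2.13 (SE 0.56, unadjusted p = 0.00014, adjusted p = 0.11 by limma). The values of hearts 2, 4 and 5 rest on 13, 3 and 3 UMIs. Without the neutrophil-marker cells the log2 difference was 2.44 (adjusted p = 0.024 by limma), and without heart 6 it was 2.59 (adjusted p = 0.015). Without hearts of under 10 cells it was 2.04 (adjusted p = 0.9995), with voom 2.23 (0.9994) and without heart 4 1.51 (0.58). The call of *Ptgs2* thus depended on the cells, hearts and test used. *Cxcl2*, a neutrophil attractant and the most abundant gene of the list in macrophages (2033.5 CPM) and Mo-DCs (3602.2 CPM), overlapped between groups in both. In fibroblasts, the cells with most *Il1r1*, *Cxcl1* averaged 1931.2 CPM and *Il6* 788.0 CPM, with differences of -0.20 (SE 0.29) and -0.40 (SE 0.29).

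Genes of the response to IL-18 with IL-12 reached an unadjusted p of 0.05 or less in 12 of 62 tests (19.4%), 10 higher and 2 lower, while the groups did not overlap in 6 (9.68%), near the share of all tests. In NK cells *Il12rb2*, a chain of the IL-12 receptor, was 172.0, 196.2 and 188.0 CPM in the IL-33+ hearts and 135.5, 147.9 and 127.2 CPM in the IL-33- hearts, without overlap (log2 difference 0.41, SE 0.19, adjusted p = 0.85 by limma). *Ifng*, the gene of interferon-γ, did not follow in NK cells, with 118.9, 167.7 and 171.6 CPM against 162.8, 237.5 and 131.4 CPM. In Trm-like cells it was 116.5, 73.1 and 128.7 CPM against 57.2, 33.3 and 54.0 CPM, without overlap (log2 difference 0.99, SE 0.38, adjusted p = 0.92). The summed NK cell markers given above had the same order in Trm-like cells. Without the NK-marker cells *Ifng* was 153.2, 44.2 and 141.3 CPM against 58.2, 19.0 and 55.1 CPM, and the groups overlapped. The log2 difference was then 1.13, and the overlap came from heart 2, whose value rests on 2 UMIs. The chemokine gene *Xcl1* differed by -0.75 on the log2 scale in NK cells (SE 0.23, adjusted p = 0.51), where the hearts overlapped.

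The genes whose levels over the 14 types were most like those of each member were sought among 9083 genes, by Pearson r of log2(CPM + 10). *Il1b* was nearest to *Cd300a* (r = 0.98), *Plbd1* (0.97) and *Psap* (0.97), *Il1rn* to *Slc7a11* (0.98), *Cd300c2* (0.97) and *Ccl9* (0.97), and *Nlrp3* to *Slc11a1* (0.98), *Lpcat2* (0.97) and *Il1rn* (0.97). *Il1r1* was nearest to *Maged1* (0.95), *Plce1* (0.95) and *Lgi2* (0.94). *Il18r1* was nearest to *Galnt2* (0.96), *Med14* (0.95) and *Lck* (0.95), and *Il18rap* to *Gdpd5* (0.92), *Ptpn7* (0.92) and *Ppm1j* (0.91). *Casp1* was nearest to *Adprh* (0.92), *Mdfic* (0.92) and *Sh3bgrl* (0.91), and *Pycard*, with the lowest best value, to *Mrps21* (0.85), *Eno1* (0.83) and *Atp5l* (0.83). *Il1a* and *Il18*, on few UMIs, were nearest to *Mmp12* (0.91) and *Ceacam1* (0.92).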

How the data were processed

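The authors aligned the 10x 3' reads with Cell Ranger to mm10, kept cells by counts, genes and mitochondrial share in Partek Flow 10.0.23.0425, and deposited a matrix of log2(CPM + 1) values and an annotation of each cell's type, graft genotype and hashtag. With the log2 undone, 99.9% of low deposited values were whole UMIs to a tolerance of 0.05, and the 22 symbols that were not whole include none of the 10 genes. No per-cell columns were left unmapped. The GEO samples pool the hearts, so the heart was taken from the hashtag and was the replicate. The authors' limits on counts and genes per cell were their step against doublets. No further cell was removed here.

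Per heart and type, CPM was averaged over cells, 10 was added before log2, and limma 3.58.1 in R 4.3.3 (eBayes with trend) compared 3 IL-33+ with 3 IL-33- hearts for genes with at least 10 UMIs and a UMI in 3 hearts. The limma SE, interval and p draw on the variance of all genes of a type, so they do not measure a single gene's spread between hearts alone. Adjusted p-values are Benjamini-Hochberg over all genes of a type. The script was tested on simulated data. Single values were compared by two-sided exact permutation over the 20 divisions of 6 hearts. Depth was 908132 to 7012931 UMIs per heart, and means of few cells are less precise. Alternatives changed the pseudocount, filter, summing, test, scaling, cells and hearts. Members and lists were chosen with earlier results of these data known. Named from the lists were called genes, or the 3 highest of a list in macrophages, monocytes, Mo-DCs, NK cells or fibroblasts. Other steps used pandas 2.3.3, scipy 1.17.1, numpy 2.4.6 and matplotlib 3.10.9 under Python 3.11.15.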

Additional observations from a re-analysis of the deposited data

Results flagged for a closer look

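The *Il1rn* values of the graft groups had opposite orders in different cell types, without any of these differences passing the adjusted test. Every IL-33+ heart was above every IL-33- heart in Mo-DCs (log2 difference 0.95, adjusted p = 0.9998 by limma) and in B cells (1.21, adjusted p = 0.84), and below every IL-33- heart in monocytes (-0.91, adjusted p = 0.97). The log2 difference between graft groups in Mo-DCs was 1.86 above that in monocytes, and in B cells it was 2.11 above it. These pairs of types were picked because their groups did not overlap in opposite directions, which sets the permutation p of their difference at its minimum, so no p is given and the difference was not tested independently. The B cell levels were 31.2, 22.2 and 38.2 CPM in the IL-33+ hearts, from 4, 1 and 9 UMIs, and 10.7, 0 and 15.2 CPM in the IL-33- hearts, from 3, 0 and 1 UMIs. Without the neutrophil-marker cells the Mo-DC difference was 1.27, and the groups overlapped there (exact permutation p = 0.2).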

How the results depend on the processing

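No paired analysis was possible because the hearts are numbered 1 to 6 and the groups share no number. Over the alternatives, the number of genes called was 10 as reported, 3 with a pseudocount of 1 CPM and 37 with 50, 67 without the low-count filter, 28 with limma-voom, 16 with the robust option, 6 with median-ratio scaling, and 4 to 108 with a heart left out. Of the 10 members, 0 were called as reported, 1 without neutrophil-marker cells (*Il1b* in Mo-DCs), and 0 to 1 with a heart left out (*Il1b*, in Mo-DCs without IL-33+ replicate 1 and in monocytes without IL-33+ replicate 3). Members whose groups did not overlap over all cells numbered 1 as reported, 0 with summed UMIs and 1 to 3 with a heart left out, where 3 came without IL-33+ replicate 1 or 2 and fewer hearts overlap less by construction. The share of all genes on that measure was not counted. Of 426 values for 31 single-gene results, 392 kept their sign and side of the threshold, 32 changed sign and 2 became calls, and 18 results never changed sign. The changes of sign are given on the log2 scale. *Il1a* in macrophages gave -0.051 with a pseudocount of 1 CPM, -0.23 with summed UMIs, -1.72 with voom and -0.58 to 0.89 with a heart left out. *Il1a* in Mo-DCs gave -0.034 with a pseudocount of 50 CPM, -0.062 with summed UMIs and -0.30 to 0.74 with a heart left out. *Il1rn* in macrophages gave -0.21 with voom, -0.038 without mixed-lineage cells and -0.17 to 0.28 with a heart left out. *Il18* in monocytes gave 0.27 without hearts of under 10 cells and *Pycard* in Tem/eff cells 0.026 without mixed-lineage cells. With a heart left out, *Il1r1* in monocytes ran from -0.72 to 0.43, *Il18* from -1.23 to 0.17 in monocytes and -0.69 to 0.10 in macrophages, *Il18r1* in Trm-like cells from -0.34 to 0.17, *Pycard* in Tem/eff cells from -0.20 to 0.080, and over all cells *Il1rn* from -0.056 to 0.49, *Il1r1* from -0.17 to 0.35 and *Casp1* from -0.059 to 0.175. With summed UMIs over all cells, *Il1a* gave -0.12, *Il18* 0.011 and *Casp1* -0.011. The cause was not tested. Types with under 10 cells in a heart, and genes of under 100 UMIs such as *Il1a* and *Il18*, limit the depth.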
